A study of Saccharomyces cerevisiae with 16 samples.

Results

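Transcript levels after acrolein were compared with those of untreated cells in the budding yeast Saccharomyces cerevisiae, over 4 acrolein arrays and 4 control arrays chosen by their titles. These are 8 of the 16 arrays of the study, and the comparison covers the 5404 named genes whose signal varied over the arrays. Cells of the acrolein group received 0.05 mM acrolein for 1 h. The control cells were untreated. The remaining arrays, 4 from cells given 0.3 mM H2O2 (hydrogen peroxide) and 4 from cells given 0.016 mM NEM for 1 h, were used to test where acrolein differed from another reactive compound. NEM is not spelled out in the labels, and the abbreviation usually stands for N-ethylmaleimide, a thiol-alkylating agent. All groups were of the strain BY4741 in early exponential phase, grown in YEPD (a rich glucose medium) at 30 °C with shaking at 250 rpm. BY4741 is a haploid laboratory strain of mating type a that lacks URA3, LEU2, MET17 and part of HIS3, so every group carried these deletions. Whether the 4 arrays of each group stem from independent cultures is not stated in the labels. The p-values therefore measure only the spread between arrays, which may be technical.

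Acrolein is a small, volatile aldehyde with a double bond beside its carbonyl group, and it adds readily to thiols and amines. Smoke, overheated fat and lipid peroxidation produce it. Yeast is known to remove such compounds by reduction with NADPH, by conjugation to glutathione and by export from the cytosol. The transcription factor Yap1, which is activated through its own cysteines, drives many of the genes for these steps.

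Values are the deposited log2 signals of the Affymetrix Yeast Genome 2.0 array, on which 1 unit is a 2-fold step. Differences are acrolein minus control in log2 units ± SE with n = 4 arrays a group, unless another group is named. A gene was called where the Benjamini-Hochberg adjusted p of limma's moderated test was under 0.05, and rose or fell is written only of called genes. Over all genes tested 28.2% rose and 37.6% fell, and counts over gene lists are to be read beside these shares. The highest signal of probe sets for another yeast species, 5.15, was taken as the background level. For a group with no array above that level the text gives a bound, computed against it, in place of a fold. Paired values come from a fit to the acrolein and control arrays alone with the replicate number as a block.

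Acrolein replicate 1 stood apart from the other arrays. Over 7 probe sets for ribosomal RNA its signal averaged 15.48, against 9.20 to 12.52 on the other acrolein arrays and 8.75 to 11.55 on the control arrays. Its 3′ signal exceeded its 5′ signal by 1.20 over 7 transcripts, against 0.62 to 0.72 on the other acrolein arrays and 0.60 to 0.72 on the control arrays. The part of these measures in the results was not tested. Counts over all genes without this array are given beside the main ones, and counts over gene lists without it only for some lists. For the deleted genes URA3, LEU2 and MET17 all 8 arrays gave the lowest value in the file. HIS3, which is deleted only in part, was detected, at 11.89 to 12.27 in acrolein and 11.06 to 11.51 in control. The a-cell genes of receptor, pheromone and agglutinin, among them STE2, read between 11.30 and 13.50 on all 8 arrays. ASG7, another gene specific to a cells, read 7.87 to 8.27 in acrolein and 9.15 to 9.59 in control. Of the alpha-cell genes, MF(ALPHA)1 gave the same lowest value throughout and MF(ALPHA)2 at or below 2.97. STE3, the a-factor receptor of alpha cells, read 4.57 to 5.42 in acrolein and 6.24 to 7.59 in control. SAG1, the alpha-agglutinin gene, was detected in both groups, at 11.35 to 11.57 in acrolein and 10.79 to 10.87 in control.

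Acrolein changed 3554 of the 5404 genes, 65.8%. Of these 1524 (28.2%) rose and 2030 (37.6%) fell. Without acrolein replicate 1 the counts were 1518 up and 1851 down. Most changes were small, with a median size of 0.52 among called genes, and 799 of the rises and 1215 of the falls were under 1.5-fold. By the fitted differences at least 2-fold rises numbered 378 (6.99%) and at least 2-fold falls 349 (6.46%). Changes of at least 4-fold numbered 79 up and 88 down, and of at least 16-fold 14 up and 17 down, again by the fitted differences. These counts include genes at background in 1 group, such as YOR161C-C and YOL131W, for which only a smaller bound is given below. All 4 acrolein arrays lay above all 4 control arrays for 1371 genes (25.4%) and below them for 1833 genes (33.9%), so the groups did not overlap for 3204 genes (59.3%). The genes named as the largest changes were chosen among these, so the choice fixed that their groups do not overlap. The median difference over all genes was -0.06.

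The direction of change varied with the level in untreated cells. Control signal both sorts the genes and is subtracted in the difference, so level and change are not independent. The part of this in the pattern was not tested. Among the fifth of genes with the lowest control signal, 197 rose and 136 fell by at least 2-fold. Among the fifth with the highest control signal, 7 rose and 61 fell by at least 2-fold. Of the genes with the highest control signal 24.4% of genes rose and 49.1% fell by any amount. Taken pair by pair over the replicate numbers, between 98.9% and 99.6% of the called genes kept the direction of the mean. The calls rest on these same arrays, so choosing called genes largely fixed this share, and it does not measure how well replicates match.

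**Figure D1:**
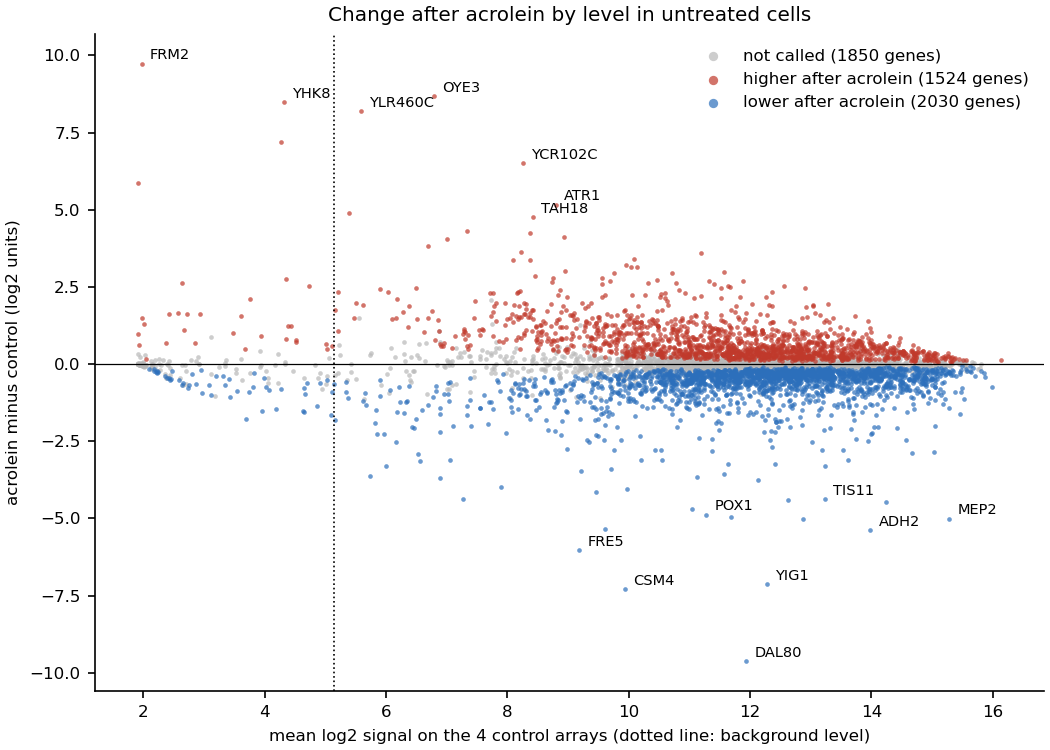
Each point is 1 of the 5404 genes, placed by its mean log2 signal on the 4 control arrays (horizontal axis) and its acrolein minus control difference in log2 units (vertical axis). Called genes are coloured by direction, 1524 up and 2030 down, and the large rises lie mostly at low control signal while large falls reach up to the brightest genes. The control signal enters both axes.

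Genes for the reduction of aldehydes and enals held several of the largest rises. Of 26 genes listed for this role, not all of them established oxidoreductases, 14 rose and 7 fell. Their median difference was 0.50 against -0.06 over all genes. OYE3, an old yellow enzyme that reduces alpha,beta-unsaturated carbonyl compounds with NADPH, read 15.37, 15.47, 15.36 and 15.68 on the acrolein arrays, against 7.28, 6.25, 6.67 and 6.96 on the control arrays. The gap between the groups was wide on every array, at 8.68 ± 0.16 (limma adjusted p = 1.99e-13). Its paralog OYE2 read 15.24, 15.43, 15.31 and 15.36 in acrolein, against 14.04, 13.89, 13.92 and 13.95 in control. OYE2 was already bright in untreated cells, and it rose by 1.39 ± 0.05 (adjusted p = 6.53e-11) with no overlap.

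FRM2 and HBN1 are neighbouring genes for a pair of related nitroreductase-like proteins, and both rose. FRM2 read 11.68, 11.62, 11.74 and 11.78 in acrolein and 1.97, 1.93, 2.04 and 1.95 in control. All 4 control values lay at background, so FRM2 was at least 94.2-fold higher (adjusted p = 8.11e-13). HBN1 rose by 1.55 ± 0.07 (adjusted p = 1.01e-09). YLR460C and YCR102C, similar open reading frames for proteins of the quinone oxidoreductase kind, rose as well. YLR460C read 13.84, 13.65, 13.79 and 13.86 with acrolein, against 4.96, 5.33, 5.98 and 6.10 without. YCR102C read 14.71, 14.81, 14.65 and 14.91 with acrolein, against 7.89, 8.14, 8.51 and 8.49 without. In both genes the acrolein arrays lay within 0.30 of each other while the controls spread more widely near or above background. YKL070W, an uncharacterised open reading frame, read 11.38, 11.45, 11.33 and 11.74 in acrolein, against 4.03, 3.77, 5.28 and 4.03 in control, where 3 of the 4 arrays lay at background (adjusted p = 8.53e-11).

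Reductases with smaller rises were GRE2, which reduces methylglyoxal and other carbonyls, at 2.46 ± 0.09, and YNL134C, an alcohol dehydrogenase-like protein, at 1.94 ± 0.06. SFA1, the glutathione-dependent formaldehyde dehydrogenase, rose by 1.89 ± 0.05 and ADH6, an NADPH-dependent alcohol dehydrogenase of broad range, by 1.21 ± 0.05. ADH1, the main fermentative alcohol dehydrogenase, was not called, at 0.01 ± 0.02 (95% interval -0.04 to 0.05), but was called with quantile normalization, at 0.11 (adjusted p = 0.00158). Among the 7 members that fell were ADH2, BDH1 and BDH2, of ethanol and butanediol use. GCY1 and YJL218W also fell (-1.03 ± 0.09 and -0.94 ± 0.21), and ADH3 and AIM17 fell by less (-0.16 ± 0.03 and -0.19 ± 0.06). ADH2, which oxidises ethanol, read 8.76, 8.86, 8.20 and 8.62 in acrolein and 13.46, 14.08, 14.36 and 14.02 in control. It fell by 5.37 ± 0.34 (adjusted p = 1.76e-08) with all acrolein arrays far below the controls. BDH2, a putative butanediol dehydrogenase, fell by 2.00 ± 0.09 and its neighbour BDH1 fell by 0.67 ± 0.05. Aldehyde dehydrogenases, which oxidise aldehydes to acids, did not rise. Of 9 members none rose and 7 fell, from ALD2 at -0.99 ± 0.07 to ALD6, the main cytosolic enzyme, at -0.15 ± 0.04. The call of ALD6 was lost in the paired fit (adjusted p = 0.0681) and in the fit to both groups without pairing (adjusted p = 0.0509). ALD3 was not called at -0.37 ± 0.17 (adjusted p = 0.0663), but it passed in the paired fit (adjusted p = 0.00365) and in 5 of the other alternatives, among them those without acrolein replicate 2 or NEM replicate 4 (limma adjusted p between 0.0383 and 0.0387).

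**Figure D2:**
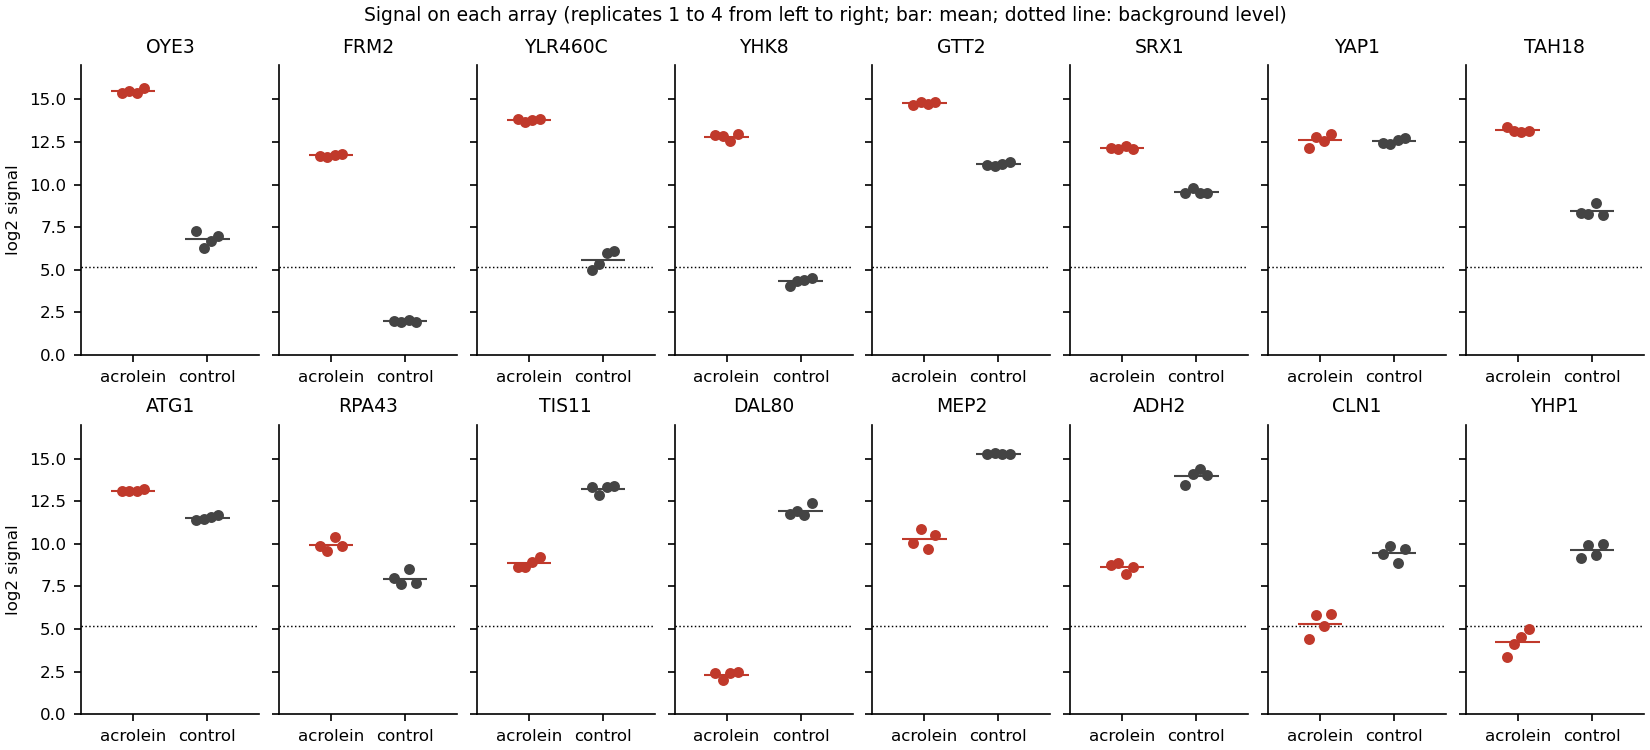
Log2 signal on each array for 16 genes named in the text, with the 4 acrolein arrays left of the 4 control arrays in every panel, horizontal bars at the group means and the dotted line at the background level of 5.15. In 15 panels the groups do not overlap, and in the YAP1 panel they do. Several of the genes were chosen among those whose groups do not overlap.

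Genes of glutathione synthesis and conjugate handling went both ways. Of 18 members 10 rose and 6 fell, and without acrolein replicate 1 the falls numbered 4. GSH1, which carries out the limiting step of glutathione synthesis, rose by 1.65 ± 0.08 and GSH2, the second step, by 0.24 ± 0.08 (adjusted p = 0.0187). The call of GSH2 was lost without acrolein replicate 2 or 4 or control replicate 1 or 2 (limma adjusted p between 0.0516 and 0.0617). GTT2, a glutathione transferase, read 14.66, 14.87, 14.72 and 14.83 in acrolein, against 11.14, 11.06, 11.19 and 11.35 in control. The groups were 3.58 ± 0.07 apart (adjusted p = 2.78e-13), whereas the other transferase, GTT1, fell by 0.67 ± 0.08. ECM4 and GTO1, omega-class transferases, rose by 2.54 ± 0.09 and 0.64 ± 0.10. Their family member GTO3 went the other way, with 4.69, 5.84, 6.21 and 6.92 in acrolein and 10.00, 9.22, 10.40 and 10.24 in control. GTO3 fell by 4.05 ± 0.39 (adjusted p = 1.28e-06), and its values spread more widely after acrolein. Acrolein replicate 1 of GTO3 lay below the background level, and without that array the difference was -3.64. YCF1, the vacuolar pump for glutathione conjugates, rose by 1.52 ± 0.06 and the glutathione importer OPT1 by 1.64 ± 0.08. DUG2 and DUG3, which together degrade cytosolic glutathione, rose by 0.96 ± 0.05 and 0.98 ± 0.05.

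Peroxide-linked genes went both ways. Of 16 thioredoxin and peroxiredoxin system genes 6 rose (37.5%) and 7 fell (43.8%), where 28.2% and 37.6% of all genes did. Without acrolein replicate 1 the counts were 7 up and 5 down. SRX1, which restores overoxidised peroxiredoxin, read 12.17, 12.09, 12.26 and 12.11 in acrolein, against 9.51, 9.77, 9.50 and 9.48 in control, a rise of 2.59 ± 0.09 (adjusted p = 5.44e-11). GPX2, a glutathione peroxidase, rose by 2.54 ± 0.11, and its relative GPX1 fell by 1.73 ± 0.14. TRR1, thioredoxin reductase, rose by 0.96 ± 0.09, and TSA1, the main peroxiredoxin, was not called at 0.05 ± 0.03 (95% interval -0.01 to 0.12). Without acrolein replicate 1 TSA1 passed, at 0.08 (adjusted p = 0.00991). Against the H2O2 arrays 1 of these 16 genes was higher after acrolein and 14 were lower, where 26.7% and 30.6% of all genes were. SRX1 was among the lower ones, with a difference from H2O2 of -3.44 ± 0.09 (adjusted p = 1.72e-11).

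Of 18 genes listed for the pentose phosphate pathway and NADPH supply 7 rose (38.9%) and 7 fell (38.9%), where 28.2% and 37.6% of all genes did. Not all of these enzymes make NADPH. GND2, the minor 6-phosphogluconate dehydrogenase, rose by 2.38 ± 0.14, whereas the major enzyme GND1 rose by 0.16 ± 0.04. ZWF1, which starts the pentose phosphate pathway, was not called at -0.20 ± 0.12 (95% interval -0.47 to 0.06), and not in the paired fit (adjusted p = 0.127), but it passed when acrolein replicate 4 was left out (adjusted p = 0.0186) and with a block over all 16 arrays (adjusted p = 0.033). RKI1, ribose-5-phosphate ketol-isomerase, rose by 1.21 ± 0.22 and POS5, the mitochondrial NADH kinase, by 0.78 ± 0.08. The minor isoforms of other steps fell, with TKL2 (transketolase) at -3.47 ± 0.53 (-2.82 without acrolein replicate 3), NQM1 (transaldolase) at -2.26 ± 0.16 and SOL4 at -1.64 ± 0.12. The cytosolic and peroxisomal isocitrate dehydrogenases IDP2 and IDP3 fell (-3.11 ± 0.22 and -2.04 ± 0.17).

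Among 33 transcription factors of stress and metal responses 12 rose and 10 fell, which is 36.4% and 30.3%, where 28.2% and 37.6% of all genes did. YAP1 itself read 12.17, 12.81, 12.55 and 12.98 in acrolein and 12.44, 12.39, 12.60 and 12.74 in control, so the groups overlapped (0.08 ± 0.16, adjusted p = 0.683, 95% interval -0.26 to 0.42). Without acrolein replicate 4 its difference was -0.036. YRR1, a zinc-cluster activator of drug export genes, read 13.50, 13.69, 13.59 and 13.86 with acrolein, against 10.57, 10.72, 10.75 and 10.79 without, a rise of 2.95 ± 0.08 (adjusted p = 5.74e-12). YAP7, a Yap1 relative that represses the nitric oxide reductase gene YHB1, read 11.41, 11.75, 11.76 and 11.95 with acrolein, against 9.76, 9.31, 9.63 and 9.52 without, and rose by 2.17 ± 0.12. YHB1 was 15.18, 15.06, 15.35 and 15.18 in acrolein and 14.44, 14.07, 14.47 and 14.21 in control, 0.90 ± 0.09 (adjusted p = 1.55e-06). MET28 and MET32, cofactors of the sulfur regulator Met4, rose by 1.09 ± 0.11 and 1.01 ± 0.08, and MET4 was not called at 0.04 ± 0.07. RPN4, the activator of proteasome genes, rose by 0.73 ± 0.04. HAP4, which activates respiratory genes, fell by 1.64 ± 0.16.

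Exporters of the ABC and major facilitator families rose in 12 of 22 cases and fell in 6. YHK8, a presumed drug antiporter, read 12.88, 12.82, 12.57 and 12.97 in acrolein and 4.06, 4.31, 4.42 and 4.49 in control, at least 203-fold higher (adjusted p = 9.58e-15). ATR1, a boron and aminotriazole exporter, read 13.82, 14.13, 13.88 and 14.03 in acrolein, against 8.77, 8.48, 8.67 and 9.26 in control. AQR1, which exports amino acids and short-chain acids, read 10.58, 10.58, 10.70 and 10.16 in acrolein, against 7.27, 6.74, 6.48 and 6.31 in control. These 3 genes are among the largest rises, a choice that required groups without overlap. ATR1 and AQR1 rose by 5.17 ± 0.14 and 3.81 ± 0.21. FLR1 rose by 2.99 ± 0.07 and SNQ2 by 1.36 ± 0.06. The main pleiotropic drug pump PDR5 rose by 0.19 ± 0.07 (adjusted p = 0.0227) and YOR1 fell by 0.24 ± 0.06. The call of PDR5 was lost without acrolein replicate 3 or 4 or control replicate 2 (limma adjusted p between 0.051 and 0.0765).

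The polyamine exporters did not move as 1 group. TPO1 read 12.28, 12.63, 12.52 and 11.97 in acrolein, against 9.42, 9.57, 9.65 and 9.61 in control, a rise of 2.79 ± 0.13 (adjusted p = 8.5e-10). TPO1 was also higher than with H2O2, by 2.37 ± 0.13, and than with NEM, by 1.91 ± 0.13. TPO4 rose by 0.56 ± 0.10, while TPO2 and TPO3 fell (-0.47 ± 0.06 and -1.51 ± 0.35). Over the mean of its probe sets TPO2 was not called, at -0.08. The spermidine and urea importer DUR3 fell by 2.52 ± 0.16 and the S-adenosylmethionine and polyamine importer SAM3 rose by 1.01 ± 0.05.

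Iron-sulfur cluster assembly and iron uptake went in opposite directions. Iron-sulfur clusters are built in mitochondria, an exported sulfur compound supports a second machinery in the cytosol, and the regulators Aft1 and Aft2 respond to that pathway by raising iron uptake genes when clusters run short. Of 22 assembly genes 15 rose and 4 fell, with a median of 0.62. Of 32 iron regulon genes 7 rose and 18 fell, with a median of -0.47. Both counts were the same without acrolein replicate 1. ISU1 and ISU2 stand in both lists.

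The assembly list was split by compartment after the values were seen. In the cytosolic machinery 6 of 8 genes rose. TAH18, the reductase that feeds electrons to it, read 13.37, 13.14, 13.10 and 13.14 in acrolein and 8.35, 8.26, 8.91 and 8.19 in control. TAH18 lay 4.76 ± 0.15 higher (adjusted p = 1.32e-11), and its partner DRE2 rose by 1.37 ± 0.05. The scaffold genes CFD1 and NBP35 rose by 2.05 ± 0.08 and 1.47 ± 0.08, and NAR1, which passes clusters on, read 12.64, 12.76, 12.71 and 13.06 in acrolein, against 10.58, 10.61, 10.33 and 10.63 in control. Of the targeting complex CIA2 rose by 1.32 ± 0.08, MET18 fell by 0.53 ± 0.11 and CIA1 was not called at -0.13 ± 0.07. In mitochondria 9 of 14 genes rose. YAH1, the ferredoxin of the pathway, read 13.02, 12.80, 12.93 and 12.98 with acrolein, against 10.35, 10.27, 10.12 and 10.52 without, a rise of 2.62 ± 0.12 (adjusted p = 5.34e-10). The ferredoxin reductase ARH1 fell by 0.66 ± 0.06. The late-acting genes IBA57 and ISA2 rose by 2.30 ± 0.07 and 1.08 ± 0.07, and ATM1, the exporter that links both compartments, rose by 1.73 ± 0.15. The cysteine desulfurase NFS1 rose by 0.49 ± 0.09 and the scaffold ISU2 by 0.71 ± 0.06, while ISU1 fell by 0.23 ± 0.08, a call that was lost in the paired fit (adjusted p = 0.0568).

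Within the iron regulon AFT1 fell by 0.75 ± 0.08 and AFT2 rose by 1.39 ± 0.13 (adjusted p = 3.99e-06 for AFT1 and adjusted p = 8.58e-07 for AFT2). TIS11, which degrades messages for iron-using proteins, read 8.67, 8.65, 8.90 and 9.24 in acrolein and 13.36, 12.83, 13.33 and 13.41 in control. FRE5, of the ferric reductase family, read 2.28, 3.17, 4.02 and 3.18 in acrolein, against 9.44, 8.88, 9.28 and 9.13 in control. FRE5 was at background after acrolein and at least 16.4-fold lower. HMX1, heme oxygenase, fell by 3.11 ± 0.16, the wall protein FIT2 fell by 2.86 ± 0.08 and the siderophore importer SIT1 fell by 2.78 ± 0.08. The high-affinity pair FET3 and FTR1 fell (-1.41 ± 0.11 and -1.68 ± 0.08). FRE1, FRE2 and FRE4 were not called, and FRE3 rose by 1.59 ± 0.10. The mitochondrial iron importer MRS4 and the vacuolar one CCC1 rose by 0.56 ± 0.08 and 0.31 ± 0.06. Of copper genes, the importers CTR1 and CTR3 fell (-1.66 ± 0.17 and -1.49 ± 0.21), and CCS1, which delivers copper to superoxide dismutase, rose by 1.85 ± 0.08.

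**Figure D3:**
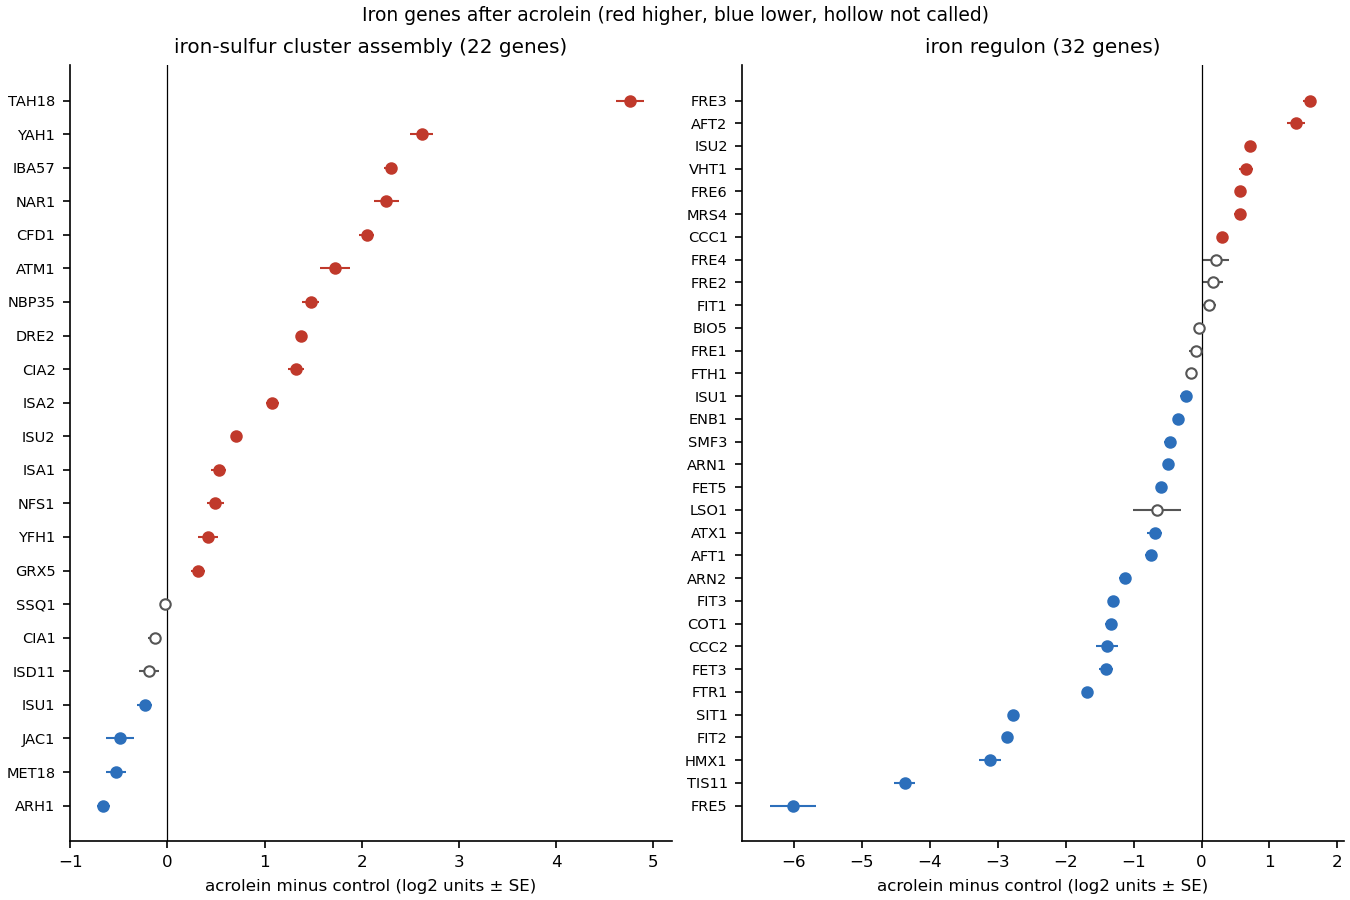
Acrolein minus control differences in log2 units (points) with the model's SE (bars, mostly smaller than the points) for 22 iron-sulfur cluster assembly genes (left panel) and 32 iron regulon genes (right panel), each sorted by value, with genes that were not called drawn hollow. In the left panel 15 genes rose and 4 fell, and in the right panel 7 rose and 18 fell.

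Transcripts of sulfate assimilation and methionine genes mostly rose, in a strain that lacks MET17. Sulfur supply itself was not measured. Of 28 sulfate assimilation and methionine genes 22 rose and 2 fell (1 without acrolein replicate 1 or control replicate 3), with a median of 0.60, and MET16, the phosphosulfate reductase, rose by 1.64 ± 0.06. The methionine permease MUP3 rose by 1.49 ± 0.09. SUL1, a sulfate permease, fell by 1.37 ± 0.33. Against NEM 5 of these genes were higher after acrolein and 17 were lower, where 24.8% and 26.6% of all genes were, and the difference of MET16 from NEM was -0.76 ± 0.06 (adjusted p = 4.26e-07).

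Genes of the small-subunit processome rose, and most of those for mitochondrial translation and respiration fell. Of 35 genes of the small-subunit processome, the large particle that shapes the early 18S ribosomal RNA, 33 rose and 1 fell, with a median of 1.26. IMP3 read 10.92, 10.21, 10.71 and 10.43 in acrolein, against 8.13, 7.94, 8.52 and 8.22 in control, and rose by 2.36 ± 0.19 (adjusted p = 2.53e-07). BUD21, the exception, fell by 0.53 ± 0.13. Of 33 genes for RNA polymerase I and III subunits 13 rose (39.4%), 6 fell (18.2%) and 14 were not called. Among the subunits named RPA, a smaller group formed after the values were seen, of RNA polymerase I and its close partners, 6 of 7 rose. RPA49 read 9.76, 8.89, 10.18 and 9.26 in acrolein, against 7.39, 7.10, 8.01 and 7.37 in control. RPA43 read 9.87, 9.59, 10.40 and 9.86 in acrolein, against 8.01, 7.62, 8.51 and 7.69 in control. In both genes replicate 3 was the highest array of each group and replicate 2 the lowest, and the genes rose by 2.06 ± 0.30 and 1.97 ± 0.32. RPA190 and RPA135, the largest subunits, rose by 1.40 ± 0.19 and 1.42 ± 0.20, and RPA12 was not called at -0.49 ± 0.33 (95% interval -1.21 to 0.22). RRN7, an initiation factor of the same polymerase, fell by 1.32 ± 0.41.

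Of 36 translation factors 22 rose and 2 fell, none by 2-fold, from TIF4631 (eIF4G) at 0.81 ± 0.16 to SUI1 (eIF1) at -0.86 ± 0.08. In the paired fit and without acrolein replicate 4 the falls numbered 4. Nucleotide synthesis genes rose with them in part. Of 27 purine and one-carbon genes 17 rose and 2 fell, and BAS1, the activator of that pathway, read 9.77, 9.43, 9.89 and 9.50 in acrolein and 7.95, 8.24, 7.31 and 7.60 in control. BAS1 rose by 1.87 ± 0.22 (adjusted p = 6.24e-06), MIS1 and SHM2, which load folate with one-carbon units, by 1.06 ± 0.13 and 0.99 ± 0.09, and IMD4, of GTP synthesis, by 1.05 ± 0.17. Of 12 pyrimidine genes 5 rose and 2 fell. URA7, CTP synthase, rose by 2.17 ± 0.32, and the uridine permease FUI1 fell by 0.48 ± 0.14.

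Mitochondrial ribosomal protein genes fell in 45 of 71 cases and rose in 7, with a median of -0.23. No member moved by 2-fold. MRPS18 read 11.29, 11.60, 11.24 and 11.53 in acrolein, against 12.30, 12.34, 12.37 and 12.41 in control; it fell by 0.94 ± 0.08 (adjusted p = 2.08e-07). Of 36 genes for respiratory complexes III and IV, ATP synthase and NADH dehydrogenases 35 fell and 1 rose. NDE2, an external NADH dehydrogenase, read 7.21, 7.89, 6.49 and 8.31 with acrolein, against 10.87, 11.25, 11.19 and 11.22 without. COX4, a subunit of cytochrome oxidase, fell by 1.16 ± 0.08 and ATP14 of ATP synthase fell by 0.97 ± 0.08. The exception was CYC1, the main cytochrome c isoform, which rose by 0.39 ± 0.05 (adjusted p = 2.14e-05) and was below the H2O2 arrays (-2.54 ± 0.05). Of 21 citric acid cycle genes 19 fell and 1 rose (none without acrolein replicate 1 or 3 or control replicate 2 or 4), and the iron-sulfur enzyme ACO1 among them fell by 1.56 ± 0.14. Of 32 mitochondrial import genes 4 rose (12.5%) and 14 fell (43.8%), where 28.2% and 37.6% of all genes did. The small Tim genes TIM9 and TIM10 stood at -0.88 ± 0.08 and -1.02 ± 0.06 and the processing protease MAS1 at 0.66 ± 0.09.

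Of 31 genes for glucose transport and glycolysis 6 rose (19.4%) and 9 fell (29.0%), where 28.2% and 37.6% of all genes did. Of the 12 glycolytic enzymes among them, a group formed after the values were seen, 1 rose and 1 fell. The other 10 were not called, against 65.8% called over all genes. In the paired fit no glycolytic enzyme fell, and with quantile normalization 2 rose and none fell. Their differences were small: the dehydrogenase TDH3 stood at 0.07 ± 0.05 (95% interval -0.05 to 0.18) and the kinase PGK1 at 0.04 ± 0.03 (95% interval -0.03 to 0.12). HXT1, the low-affinity glucose transporter, rose by 1.21 ± 0.17 (adjusted p = 3.67e-05). HXT9, a hexose transporter-like gene that shares probes with relatives, read 10.29, 10.70, 9.60 and 10.54 in acrolein, against 5.33, 5.33, 5.60 and 5.33 in control, and may report those relatives as well. Its difference was 4.88 ± 0.25, or 3.43 over the mean of its probe sets. Of 20 genes for gluconeogenesis, glyoxylate and acetate use 2 rose and 15 fell. SFC1, which exchanges succinate for fumarate across the mitochondrial membrane, read 8.45, 10.70, 9.91 and 10.04 in acrolein, against 13.85, 14.37, 14.46 and 14.29 in control. FBP1, a key enzyme of gluconeogenesis, fell by 3.25 ± 0.30, the lactate importer JEN1 fell by 2.09 ± 0.13 and malate synthase MLS1 fell by 2.47 ± 0.38. PCK1, the other dedicated step of gluconeogenesis, went against the rest, with 13.44, 14.42, 13.97 and 13.93 in acrolein and 12.39, 13.28, 12.98 and 12.76 in control. Each acrolein array lay above all controls for PCK1, by 1.08 ± 0.25 on average (adjusted p = 0.00164), and the gene was 2.49 ± 0.25 above the H2O2 arrays.

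Of 25 peroxisome and fatty acid oxidation genes 5 rose and 16 fell. The oxidation enzymes fell in 8 of 8 cases, while of 11 peroxins, which build the organelle, 5 rose and 4 fell. Both of these smaller groups were formed after the values were seen. POX1, acyl-CoA oxidase, read 3.71, 8.22, 5.37 and 8.31 in acrolein, against 11.38, 10.99, 11.63 and 11.11 in control. The acrolein values were uneven, with replicate 1 at background, and POX1 fell by 4.87 ± 0.79, while without replicate 1 the difference was -3.98. The thiolase POT1 fell by 1.50 ± 0.39 and lay 4.10 ± 0.39 above the NEM arrays (adjusted p = 3.83e-06). PXA1, a subunit of the importer for long-chain acyl-CoA, fell by 2.77 ± 0.13.

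Nitrogen genes fell on the catabolic side. Of 27 nitrogen catabolite genes 3 rose and 21 fell, with a median of -0.66. DAL80, a GATA-type repressor that is itself subject to this control, read 2.41, 2.02, 2.41 and 2.46 in acrolein and 11.73, 11.91, 11.70 and 12.42 in control. All acrolein values were at background, so DAL80 was at least 111-fold lower. MEP2, the high-affinity ammonium permease and sensor, read 10.03, 10.90, 9.67 and 10.50 with acrolein, against 15.27, 15.31, 15.25 and 15.29 without. MEP2 was bright on every control array, and it fell by 5.01 ± 0.19. PUT4, the proline permease, read 6.78, 9.20, 6.95 and 8.52 with acrolein, against 12.95, 12.66, 13.02 and 12.84 without, and the neighbouring genes DAL1, DAL2 and DAL4 of allantoin use fell. UGA3, the activator of gamma-aminobutyrate use, rose by 1.13 ± 0.12, while the permease UGA4 of the same pathway fell by 3.40 ± 0.50.

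Of 21 amino acid permeases 5 rose (23.8%) and 10 fell (47.6%), where 28.2% and 37.6% of all genes did. BAP3, a branched-chain amino acid permease, read 14.46, 14.61, 14.52 and 14.73 in acrolein, against 12.11, 11.68, 12.09 and 11.65 in control, a rise of 2.70 ± 0.11 (adjusted p = 1.66e-10). TAT1 and MUP3, for aromatic amino acids and methionine, rose by 0.92 ± 0.13 and 1.49 ± 0.09. GAP1, the general permease, fell by 1.26 ± 0.11 and the arginine permease CAN1 fell by 1.11 ± 0.08. The remaining 6 permeases were not called.

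Amino acid synthesis genes went both ways. Of 20 aromatic and histidine synthesis genes 14 rose and 3 fell, and all 8 genes among them for the shikimate steps and tryptophan rose, from TRP3 at 0.50 ± 0.07 to ARO2, chorismate synthase, at 1.55 ± 0.09. These 8 genes were grouped after the values were seen. ARO2 read 12.79, 12.56, 12.72 and 12.53 in acrolein, against 11.28, 11.02, 11.08 and 11.04 in control, with no overlap. The transaminase ARO9 and the decarboxylase ARO10, which degrade aromatic amino acids, fell (-0.62 ± 0.17 and -0.84 ± 0.21). Branched-chain synthesis fell in 7 of 12 cases and rose in 2 (4 in the paired fit or without acrolein replicate 2). ILV5, the acetohydroxyacid reductoisomerase, read 11.84, 11.16, 11.68 and 11.61 in acrolein, against 13.67, 13.69, 13.53 and 13.79 in control. OAC1, a mitochondrial carrier that takes part in leucine synthesis, read 11.32, 11.24, 11.51 and 11.22 in acrolein, against 13.78, 13.66, 13.76 and 13.81 in control. Both fell with no overlap (-2.10 ± 0.13 and -2.43 ± 0.09), and the activator LEU3 of this pathway rose by 0.59 ± 0.12. For arginine 5 of 10 genes rose and 3 fell. The synthesis genes ARG2, ARG1 and ARG4 rose by 1.51 ± 0.05, 1.23 ± 0.16 and 0.72 ± 0.07, and the degradation genes CAR1 and CAR2 fell (-0.76 ± 0.09 and -0.66 ± 0.11). Of 9 lysine genes 3 rose (33.3%) and 2 fell (22.2%), where 28.2% and 37.6% of all genes did. LYS20, homocitrate synthase, rose by 0.46 ± 0.13 and was below the H2O2 arrays (-1.85 ± 0.13). PRO1, the first step of proline synthesis, rose by 1.05 ± 0.10, and GDH3, an isoform of glutamate dehydrogenase, fell by 1.90 ± 0.10. GCN4, the general activator of amino acid synthesis, fell by 0.30 ± 0.03 (adjusted p = 1.09e-06).

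General stress and reserve genes fell. Of 38 targets of the stress activators Msn2 and Msn4 none rose and 30 fell, and 1 rose without control replicate 2 or H2O2 replicate 4. XBP1, a stress-induced repressor, read 4.52, 7.51, 6.69 and 6.72 in acrolein, against 10.83, 11.23, 10.95 and 11.20 in control. Its replicate 1 was the lowest acrolein value and lay below the background level. XBP1 differed by -4.69 ± 0.48, or by -4.08 without replicate 1, and MSN4 itself fell by 0.60 ± 0.12. The gene for hydrophilin SIP18 fell by 2.80 ± 0.30 and the proteinase inhibitor gene PAI3 fell by 2.83 ± 0.18. Of 28 genes for trehalose, glycogen and glycerol 26 fell and 1 rose, the trehalase NTH2 by 0.46 ± 0.07. Without acrolein replicate 1, control replicate 1 or H2O2 replicate 2 the rises numbered 2. GAC1, which directs a phosphatase to glycogen synthase, fell by 2.40 ± 0.20. Of 33 autophagy genes 2 rose (6.06%) and 14 fell (42.4%), where 28.2% and 37.6% of all genes did. With a block over all 16 arrays 4 autophagy genes rose. ATG1, the kinase that starts autophagy, read 13.07, 13.09, 13.12 and 13.19 in acrolein and 11.39, 11.43, 11.57 and 11.69 in control. ATG1 rose by 1.60 ± 0.06 (adjusted p = 1e-10) with tight groups, while its scaffold ATG17 fell by 1.26 ± 0.25, the membrane protein ATG9 fell by 1.45 ± 0.14 and ATG8, the ubiquitin-like conjugate, fell by 0.72 ± 0.10.

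Cell cycle genes fell on both sides of S phase. In RNA from whole cultures fewer cells in a phase and less transcript per cell cannot be told apart. Of 25 genes of the G1 cyclins and the G1 to S step 3 rose and 16 fell. CLN1, a G1 cyclin, read 4.42, 5.80, 5.15 and 5.89 in acrolein, against 9.38, 9.88, 8.90 and 9.71 in control. CLN2, its close paralog, read 9.40, 9.75, 10.11 and 9.89 in acrolein, against 9.53, 9.78, 9.21 and 9.67 in control. The CLN1 groups lay far apart (-4.15 ± 0.37, adjusted p = 6.06e-07), and the CLN2 groups overlapped (0.24 ± 0.18, adjusted p = 0.254, 95% interval -0.14 to 0.62). For CLN1 acrolein replicate 1 lay below the background level, so the size of the fall is uncertain, and without that array it was -3.85. SWI4, the DNA-binding subunit of the factor that drives both cyclins, read 7.88, 9.27, 8.66 and 9.94 with acrolein, against 10.95, 11.44, 11.58 and 11.54 without, and fell by 2.44 ± 0.37. YHP1 and YOX1, repressors of M/G1 genes, fell too. YHP1 read 3.36, 4.10, 4.55 and 5.01 with acrolein, against 9.19, 9.94, 9.33 and 9.98 without, at least 22.1-fold lower, and YOX1 fell by 2.31 ± 0.36. The replication licensing gene CDC6 fell by 1.66 ± 0.33, and WHI5, the G1 inhibitor, was not called at 0.42 ± 0.41 (95% interval -0.46 to 1.30).

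Of 13 histone genes and histone gene regulators 2 rose and 11 fell. All 10 core and variant histone genes, a group formed after the values were seen, fell, with a median of -1.05. HTA1, for histone H2A, read 14.06, 13.75, 14.09 and 13.72 in acrolein, against 15.15, 15.21, 15.20 and 15.20 in control. SPT21, an activator of histone genes, rose by 1.77 ± 0.15. Of 29 genes of G2 and mitosis 2 rose and 20 fell, and without acrolein replicate 1 the counts were 4 and 19. Leaving out acrolein replicate 2 or 3 or control replicate 1, 2 or 4 gave 1 rise. CLB2, the main mitotic cyclin, read 6.92, 7.10, 7.41 and 7.14 in acrolein, against 9.54, 9.65, 9.59 and 9.59 in control. CLB2 fell by 2.45 ± 0.19 (adjusted p = 1.45e-07). The polo kinase CDC5 fell by 1.37 ± 0.14 and the chitin synthase CHS2 fell by 1.27 ± 0.12. ASE1, which bundles microtubules of the spindle midzone, went the other way, with 12.30, 12.95, 12.71 and 13.04 in acrolein and 10.46, 10.62, 10.61 and 10.74 in control. Against NEM 19 of these genes were lower after acrolein and none were higher, where 26.6% and 24.8% of all genes were. Daughter-cell genes fell in 13 of 16 cases. The glucanase DSE4 fell by 1.61 ± 0.16 and the repressor ASH1 fell by 1.17 ± 0.14.

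Of 26 replication genes 5 rose (19.2%) and 12 fell (46.2%), and without acrolein replicate 1 the counts were 7 and 9. With array weights or quantile normalization 8 rose. ORC6, of the origin recognition complex, read 12.32, 12.03, 12.19 and 12.39 in acrolein, against 10.78, 10.82, 10.84 and 10.65 in control, and rose by 1.46 ± 0.12. TAH11, which loads the helicase, rose by 1.08 ± 0.09, and POL30, the sliding clamp, fell by 1.16 ± 0.17. DNA damage genes were close to the background, with 11 of 38 up (28.9%) and 13 down (34.2%), where 28.2% and 37.6% of all genes were. RNR3, the damage-induced subunit of ribonucleotide reductase, read 10.80, 10.84, 10.40 and 10.98 in acrolein, against 9.46, 8.60, 8.94 and 9.37 in control, a rise of 1.66 ± 0.23 (adjusted p = 2.92e-05). HUG1, another gene known for strong induction by DNA damage, was not called at -0.77 ± 0.33 (adjusted p = 0.0583). HUG1 passed, on the lower side, in the paired fit (adjusted p = 0.00806) and in 10 of the other 25 alternatives run besides the stricter thresholds (limma adjusted p at most 0.0494). These include leaving out acrolein replicate 4, H2O2 replicate 4 or NEM replicate 1 or 3.

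Protein quality control genes changed in different amounts. Of 34 genes of the Hsp90 and Hsp70 systems 18 rose and 9 fell. CUR1, a sorting factor for misfolded proteins, read 14.24, 14.08, 14.27 and 14.39 in acrolein, against 12.64, 12.37, 12.23 and 12.22 in control. AHA1, the activator of Hsp90, read 14.71, 14.76, 14.68 and 14.80 in acrolein, against 13.26, 13.15, 13.03 and 13.15 in control. Neither gene had overlapping groups, and they rose by 1.88 ± 0.14 and 1.59 ± 0.07. The small heat shock gene HSP26 fell by 0.81 ± 0.05 and HSP12 fell by 0.75 ± 0.09. HSF1, the heat shock factor gene, was not called at -0.12 ± 0.14. Of 42 proteasome genes 6 rose (14.3%) and 12 fell (28.6%), where 28.2% and 37.6% of all genes did, and none moved by 2-fold. Without acrolein replicate 1 the proteasome counts were 8 and 10. NAS6, an assembly chaperone of its cap, stood at -0.79 ± 0.08 and ADD66, which helps to assemble its core, at 0.45 ± 0.05. Of these 42 genes 4 were higher and 30 were lower after acrolein than with NEM, where 24.8% and 26.6% of all genes were. In the endoplasmic reticulum list 2 of 23 rose (8.70%) and 8 fell (34.8%). ERO1, which oxidises folding proteins there, read 14.81, 14.75, 14.63 and 14.80 with acrolein, against 13.72, 13.70, 13.47 and 13.51 without, a rise of 1.15 ± 0.12. KAR2, the Hsp70 chaperone of that compartment, was not called at -0.08 ± 0.04 (adjusted p = 0.0674), but passed without control replicate 3 (adjusted p = 0.0264) and with quantile normalization (adjusted p = 0.0458).

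Smaller changes were spread over the remaining lists, several of them near the shares over all genes, 28.2% up and 37.6% down. Of 14 heme genes 6 rose and 4 fell. PUG1, a porphyrin transporter, read 9.99, 10.04, 9.69 and 10.32 in acrolein, against 7.71, 7.68, 7.84 and 7.61 in control, and CYT2, which attaches heme to cytochrome c1, rose by 1.44 ± 0.09. Of 29 ergosterol genes 5 rose (3 in the paired fit or without control replicate 1 or 2) and 10 fell, with squalene epoxidase ERG1 at -1.30 ± 0.09 and the desaturase ERG3 at 0.67 ± 0.12. Of 28 phospholipid and fatty acid genes 10 rose and 10 fell, none by 2-fold. OPI1, the repressor of phospholipid synthesis, rose by 0.94 ± 0.05 and the methyltransferase OPI3 fell by 0.80 ± 0.09.

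Of 18 zinc genes 5 rose (27.8%) and 4 fell (22.2%), with COT1, a vacuolar zinc and cobalt transporter, at -1.33 ± 0.09. Of 23 phosphate genes 9 rose (39.1%) and 6 fell (26.1%). The activator PHO4 fell by 1.21 ± 0.31 and the transporters PHO84 and PHO89 fell as well (-0.84 ± 0.16 and -0.95 ± 0.08). Of 18 thiamine and pyridoxine genes 6 rose and 7 fell, and without acrolein replicate 1 the counts were 7 and 4. Without acrolein replicate 3 the falls also numbered 4. Of 13 retrograde genes, which respond to mitochondrial state, 3 rose and 7 fell, with PDH1 of propionate use at -2.07 ± 0.23 and the sensor RTG2 at 0.67 ± 0.05. Vacuolar ATPase genes rose in 3 of 17 cases and fell in 5, against 2 rises and 2 falls in the paired fit, and 3 falls with quantile normalization.

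Of 26 genes of mating type a and pheromone response 7 rose (26.9%) and 8 fell (30.8%), where 28.2% and 37.6% of all genes did. Without acrolein replicate 3 or control replicate 4 the rises numbered 4. PRM1, of membrane fusion during mating, read 5.31, 6.25, 5.65 and 6.21 in acrolein, against 3.25, 4.31, 3.30 and 4.19 in control, at least 1.63-fold higher, and FUS1 of cell fusion rose by 1.04 ± 0.15. PRM4 fell by 1.29 ± 0.10. Of 29 wall genes 11 rose (37.9%) and 9 fell (31.0%). GSC2, a glucan synthase subunit, stood at 0.86 ± 0.08 and RLM1, a factor of the wall integrity pathway, at -0.75 ± 0.15. Of 29 ubiquitin and Cdc48 genes 6 rose (20.7%) and 11 fell (37.9%), and without acrolein replicate 1 the falls numbered 8. The deubiquitinase DOA4 rose by 1.15 ± 0.08, and the conjugating enzyme UBC5 fell by 1.18 ± 0.16 while lying 1.22 ± 0.16 above the NEM arrays. Of 15 chaperonin and prefoldin genes 7 rose, and 1, the prefoldin PFD1, fell by 0.48 ± 0.10. The falls numbered 2 in the paired fit or without acrolein replicate 4 or H2O2 replicate 4.

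**Figure D4:**
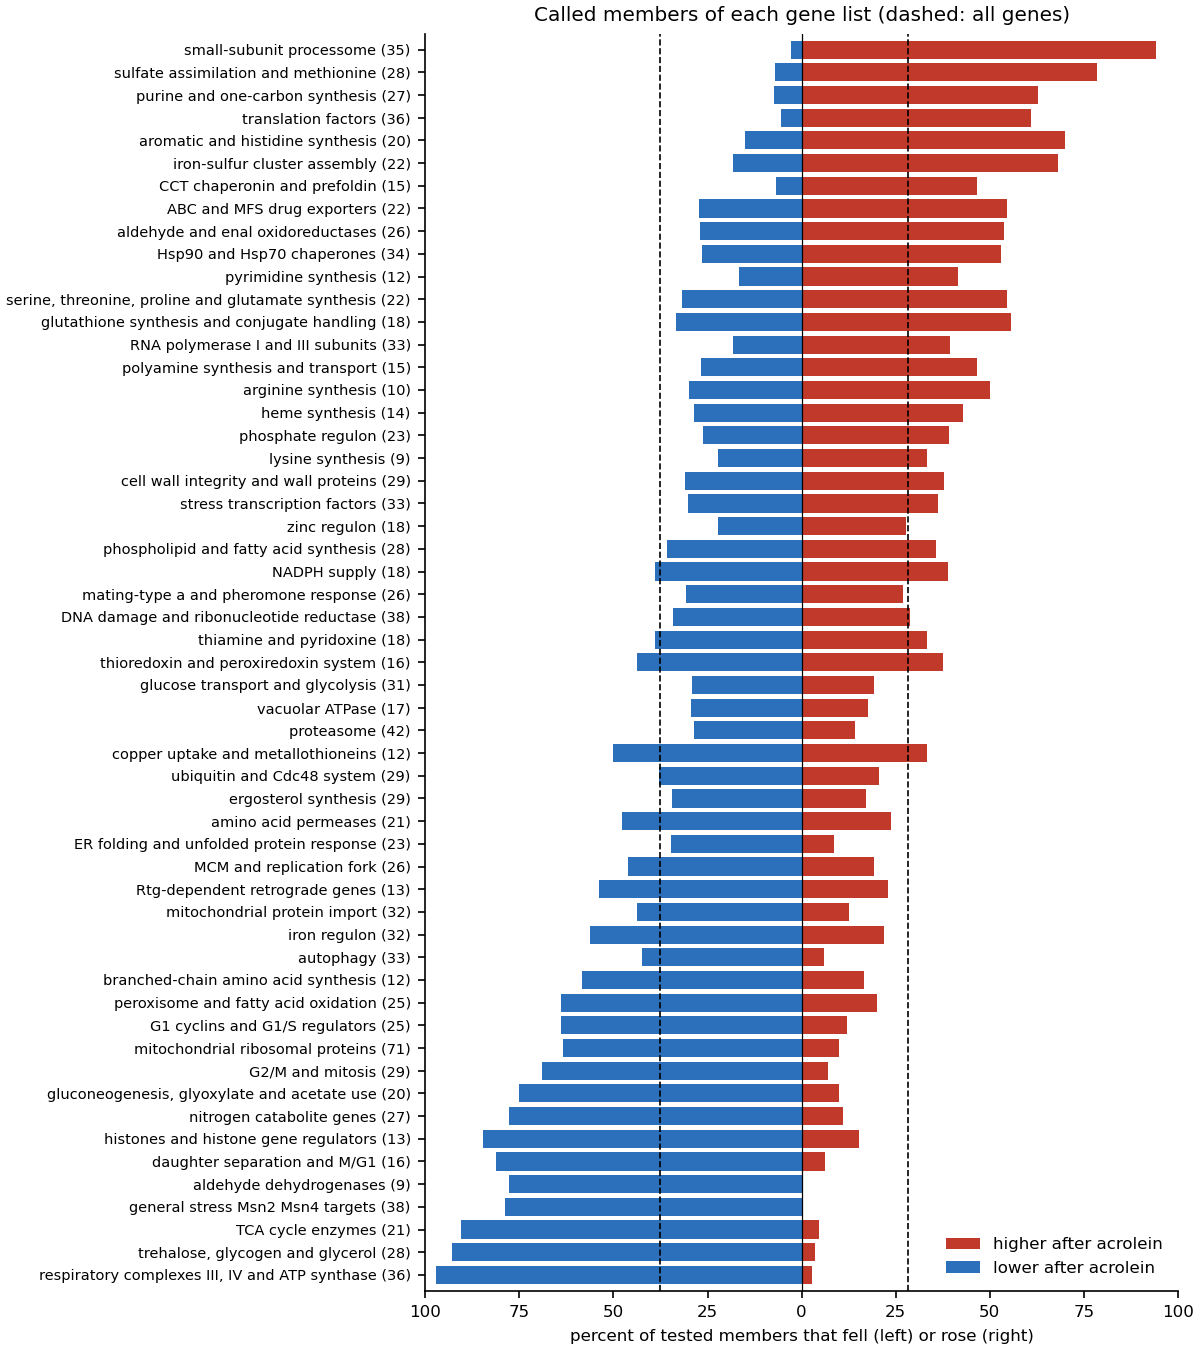
Percent of each gene list's tested members that rose (bars to the right) and fell (bars to the left) after acrolein, for all 55 lists sorted by percent up minus percent down, with the number tested in brackets. Dashed lines mark the percents over all 5404 genes, 28.2% up and 37.6% down; the small-subunit processome stands at the top with 94.3% up and the respiratory list at the bottom with 97.2% down.

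Acrolein was next set directly against the other compounds. Doses differed between the compounds, so these differences describe the treatments as given. Acrolein differed from H2O2 in 3096 genes (57.3%), with 1444 higher (26.7%) and 1652 lower (30.6%). It differed from NEM in 2776 genes (51.4%), with 1340 higher (24.8%) and 1436 lower (26.6%). Genes called in 1 direction against control, H2O2 and NEM alike numbered 525 up (9.72%) and 663 down (12.3%). These 3 comparisons share the acrolein arrays. Without acrolein replicate 1 the numbers were 460 up and 529 down.

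Among the genes higher than in all 3 other groups was PET18, a gene named for a respiration phenotype. It read 12.59, 12.82, 12.43 and 12.63 on the acrolein arrays, and its means were 8.68 ± 0.12 with H2O2, 7.93 ± 0.06 with NEM and 8.38 ± 0.54 in control (SD). The other groups lay close together, and acrolein exceeded them by 3.93 ± 0.20, 4.69 ± 0.20 and 4.24 ± 0.20. TAH18 averaged 13.19 ± 0.12 with acrolein, against 11.15 ± 0.18 with H2O2, 12.38 ± 0.17 with NEM and 8.43 ± 0.33 in control, so its order ran from acrolein over NEM and H2O2 to control. YLR460C and YCR102C exceeded NEM by 1.19 ± 0.20 and 1.52 ± 0.12 and H2O2 by 4.55 ± 0.20 and 3.12 ± 0.12. PAU3, a seripauperin gene whose probes match relatives, was 2.12 ± 0.17 above H2O2 and 1.60 ± 0.17 above NEM.

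Among the genes lower than in all 3 other groups was DAL80. It averaged 2.32 ± 0.20 with acrolein, against 11.13 ± 0.57 with H2O2, 11.17 ± 0.38 with NEM and 11.94 ± 0.33 in control, so the acrolein arrays alone were at background. YHP1 averaged 4.26 ± 0.70 with acrolein, against 8.21 ± 0.72 with H2O2, 9.49 ± 0.57 with NEM and 9.61 ± 0.41 in control. FRE5 averaged 3.16 ± 0.71 with acrolein, against 9.43 ± 0.30 with H2O2, 5.95 ± 0.60 with NEM and 9.18 ± 0.24 in control. FRE5 was thus lowest after acrolein and next lowest with NEM. ADH2 was below H2O2 by a wide margin (-4.68 ± 0.34) and below NEM by a smaller one (-0.91 ± 0.34, adjusted p = 0.0401). Several of the largest rises were not set apart from NEM. OYE3 differed from NEM by -0.13 ± 0.16 (adjusted p = 0.527, 95% interval -0.49 to 0.22) and YHK8 by 0.18 ± 0.12 (adjusted p = 0.219, 95% interval -0.07 to 0.43). FRM2 was lower after acrolein than with NEM (-0.81 ± 0.22, adjusted p = 0.00908).

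**Figure D5:**
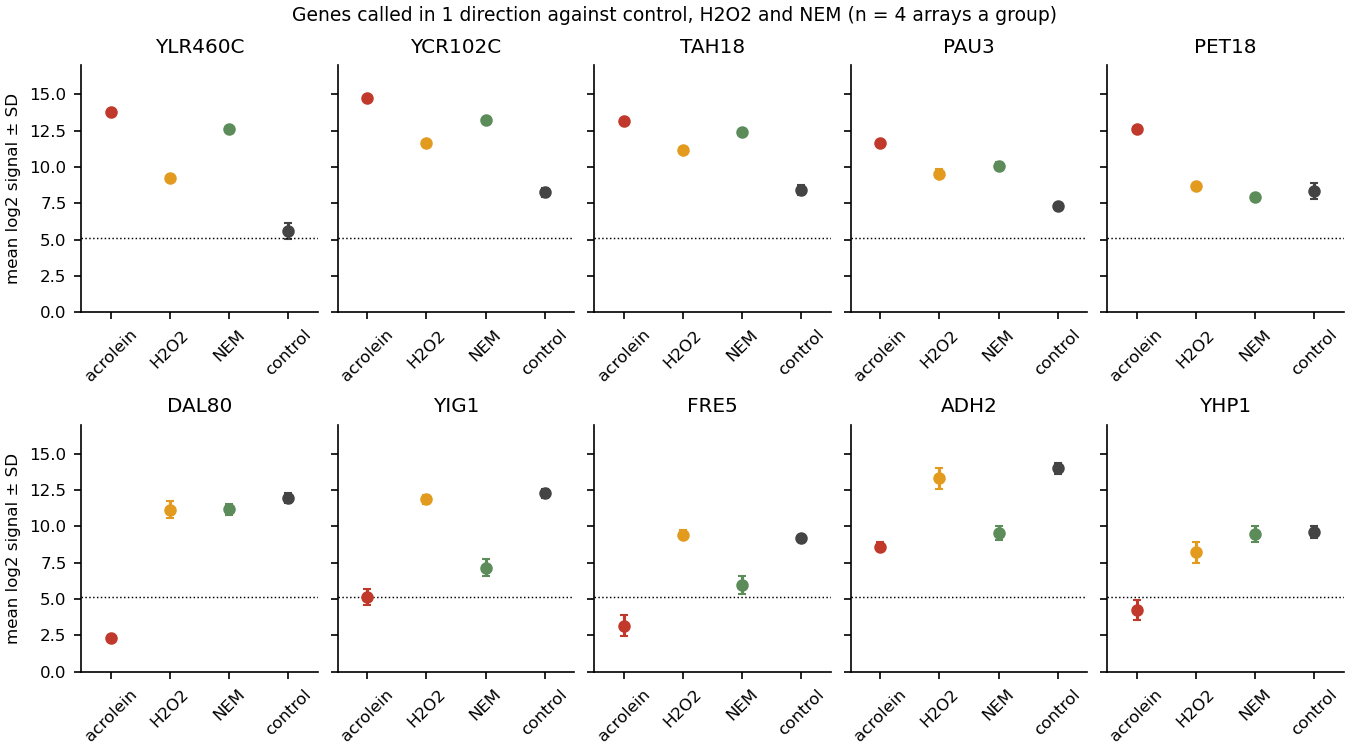
Mean log2 signal ± SD (n = 4 arrays) in acrolein, H2O2, NEM and control, from left to right, for the 10 genes with the largest differences among those called in 1 direction against all 3 other groups (top row higher after acrolein, bottom row lower). The dotted line is the background level of 5.15, and in the DAL80, FRE5 and YHP1 panels the acrolein mean alone lies below it.

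Some changes fell on neighbouring genes. Runs of at least 3 adjacent tested genes with fitted changes of at least 2-fold the same way numbered 8, of which 4 rose and 4 fell. The run FUS1, HBN1 and FRM2 and the run PET18, MAK31, HTL1 and HSP30 lie on chromosome III and rose. HTL1, of the RSC chromatin remodeller, rose by 1.97 ± 0.16 and HSP30, a membrane regulator of the proton pump, by 1.15 ± 0.06. The run YLL056C, YCT1 and YLL054C, in which YCT1 is a cysteine transporter, rose on chromosome XII. UBC11, RPA43 and RPA190 on chromosome XV also rose, but UBC11 was at background in both groups, which leaves 2 genes measured. Runs that fell were DAL1, DAL4 and DAL2 (allantoin use) and SPO22, HOP1, PCI8 and MAM33 on chromosome IX, DSF1, HPA3 and SIT1 on chromosome V, and FIT2, FIT3 and FRE5 (iron) on chromosome XV. In these runs DAL1 and SPO22 were at background after acrolein, which bounds their falls at 1.5-fold and 1.39-fold.

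The 15 largest rises and the 15 largest falls by the fitted differences also held frames without a known role. YOR161C-C read 7.34, 7.93, 7.07 and 8.84 in acrolein, against 1.92, 1.92, 1.92 and 1.92 in control. YOL131W read 2.98, 2.90, 2.88 and 2.79 in acrolein, against 6.83, 7.22, 7.63 and 7.39 in control. Both frames were chosen among genes whose groups do not overlap. YOR161C-C was at least 6.27-fold higher and YOL131W at least 4.34-fold lower. The difference of ACT1, which codes for actin, was 0.08 ± 0.05 (adjusted p = 0.212).

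CSM4 and YIG1 are adjacent genes on chromosome XVI beside AFT2, and both fell. CSM4, a meiotic telomere gene, read 2.11, 2.71, 2.45 and 3.30 in acrolein, against 9.56, 10.04, 10.40 and 9.78 in control, at least 27.8-fold lower. YIG1, whose product binds glycerol 3-phosphatase, read 4.70, 4.82, 5.16 and 5.86 in acrolein, against 11.99, 12.63, 12.40 and 12.08 in control. YIG1 fell by 7.14 ± 0.30 (adjusted p = 3.23e-10), with 2 of the 4 acrolein arrays at or above 5.16 and the other 2 below the background level, so the size of its fall is uncertain. With NEM CSM4 averaged 2.34 ± 0.48, which did not differ from acrolein by the test (0.31 ± 0.30, adjusted p = 0.418), and with H2O2 it averaged 9.20 ± 0.42. By chromosome, the median difference ran from -0.20 on I and -0.18 on IX to 0.00 on VIII.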

How the data were processed

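RNA of yeast cultures was hybridised to 16 Affymetrix Yeast Genome 2.0 arrays, and the authors deposited log2 values summarised with GCRMA, per the submitters' processing notes. No source used here states its version. The number of arrays, not a read depth, limits the precision. Of 10928 probe sets 5785 were tested, after control, other-species and constant sets were left out. A gene with several probe sets is represented by the brightest, which gave 5404 named genes. Symbols came from the platform annotation, updated through RefSeq names.

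limma 3.58.1 on R 4.3.3 fitted the means of the 4 groups over all 16 arrays (12 residual degrees of freedom, no block), with Benjamini-Hochberg adjustment over all tested probe sets. In simulated data with 100 changed probe sets of each size, 93% of 1-unit and 100% of 2-unit log2 changes were recovered, and 7 unchanged probe sets were called. The simulated arrays were independent, and the changed probe sets had control means above 6. The measured data hold many more changes and correlated arrays, so these rates check the fit and do not describe this comparison. Same-numbered acrolein and control arrays deviated together from their group means, with correlations between 0.20 and 0.45 in the 4 pairs, so their numbers were taken as pairs, and a value from the paired fit to these 8 arrays is given where it changes a call or moves a count by over 1.5 times.

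The genes named are the 15 largest changes each way whose groups do not overlap, the 5 largest each way against all other groups, and up to 4 called members of each of 55 gene lists with up to 2 that went against the rest. Further members were named to fill out pathway steps after their values were seen, 10 smaller lists by role were formed then, and 5 wrongly assigned entries were removed then. The comparison and the lists were chosen with earlier results of these data known. Alternatives covered the normalization, the floor, dim probe sets, the variance prior, array weights, the arrays in the fit, thresholds and each array left out. Promoter sequences were not analysed here.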

Additional observations from a re-analysis of the deposited data

Results flagged for a closer look

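Of 516 groups of 4 arrays for the genes named in the text, 27 (5.23%) held an array set apart from the other 3 by Dixon's criterion, and chance alone sets apart about 1 group in 20. Acrolein replicates 1 to 4 accounted for 3, 2, 4 and 1 of these, and control replicates 1 to 3 for 8, 6 and 3. All values are log2 signals.

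Acrolein replicate 1 lay above its group for FIT3 at 13.51 (next 13.35) and TAH18 at 13.37 (next 13.14). Acrolein replicate 1 lay below its group for SPO22 at 3.74 (next 4.57). Acrolein replicate 2 lay above its group for PAU18 at 13.32 (next 13.13). Acrolein replicate 2 lay below its group for DAL80 at 2.02 (next 2.41). Acrolein replicate 3 lay above its group for DAL1 at 2.09 (next 2.09). Acrolein replicate 3 lay below its group for CTR3 at 6.37 (next 7.11), GDH3 at 9.55 (next 9.64) and PXA1 at 10.41 (next 10.85). Acrolein replicate 4 lay below its group for YCT1 at 12.28 (next 12.38).

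Control replicate 1 lay above its group for OPT1 at 12.16 (next 11.87), PHO4 at 11.07 (next 10.78), RPN4 at 13.85 (next 13.84) and TRP3 at 12.58 (next 12.36). Control replicate 1 lay below its group for ERG1 at 12.51 (next 12.78), FRE2 at 8.95 (next 9.18), IDP2 at 13.05 (next 13.75) and NDE2 at 10.87 (next 11.19). Control replicate 2 lay above its group for ATG8 at 14.39 (next 14.19), SRX1 at 9.77 (next 9.51) and SUE1 at 13.20 (next 12.51). Control replicate 2 lay below its group for PCI8 at 11.01 (next 11.19), TIS11 at 12.83 (next 13.33) and TPO2 at 12.70 (next 12.82). Control replicate 3 lay above its group for HXT9 at 5.60 (next 5.33), SAM3 at 13.36 (next 13.21) and YKL070W at 5.28 (next 4.03).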

How the results depend on the processing

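The counts called over all genes stayed within 1.5 times their main values under each alternative run, except under the stricter thresholds. At an adjusted p under 0.01, 888 genes were higher after acrolein than with NEM, and 687 genes (290 higher, 397 lower) were called against all 3 other groups. With a change of at least 2-fold required, acrolein differed from control in 727 genes (378 up, 349 down), from H2O2 in 438 (174 up, 264 down), from NEM in 229 (126 up, 103 down) and from all 3 in 76 (33 up, 43 down). Fewer genes can pass a stricter threshold by its construction. Of 134 counts over gene lists, up or down, 17 moved by more than 1.5 times under at least 1 of the 26 alternatives besides the thresholds, and the lists are small; these are given with the lists.

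Leaving out 1 array at a time gave 3310 to 3605 genes against control (1440 to 1549 up, 1851 to 2056 down), 2734 to 3158 against H2O2 (1263 to 1475 up, 1471 to 1683 down), 2304 to 2815 against NEM (1103 to 1362 up, 1201 to 1472 down), and 957 to 1243 against all 3 (416 to 564 up, 529 to 696 down). With the replicate number as a block the counts were 3769, 3397, 3104 and 1450, and with a block over the acrolein and control arrays alone, chosen after seeing the data, 3549 genes differed from control. Same-numbered acrolein and H2O2 arrays had residual correlations of -0.29, -0.36, 0.39 and 0.40, and arrays 1 and 2 correlated across numbers (0.51 and 0.47), so the number does not pair the H2O2 arrays and the 16-array counts are given only as an alternative. Among the genes named, that block brought ALD3 (adjusted p = 0.0255), ZWF1 and HUG1 (adjusted p = 0.0285) past the threshold and changed no other call, and the block over acrolein and control arrays brought ALD3 and HUG1 past it and lost ALD6 and ISU1.

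Of the 258 genes named, 243 kept their direction and their side of the threshold under every alternative except the 2-fold threshold. Differences that were not called changed sign for YAP1 (-0.036 to 0.23 over the arrays left out), ADH1 (-0.0046 to 0.0174) and, with quantile normalization, RPA12 (0.18); the cause was not tested. With array weights PDR5 was not called (limma adjusted p = 0.0555) and TSA1 was (0.0324), and with a floor of 4 UBC11 was not called (0.252). The fit on 2 groups alone gives no value for genes called against all 3 groups. Signal near the lowest value of the file limits the size, not the call, of the largest changes: a floor of 4 reduced the FRM2 difference to 7.71 and that of DAL80 to -7.94.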

Other observations

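Seripauperin genes, a family of wall proteins known for induction in the cold and without oxygen, are spread over many chromosome ends, and this group was picked after its values were seen. Of 13 genes with a PAU name 11 rose after acrolein and none fell, with a median of 1.64 against -0.06 over all genes. PAU4 read 13.10, 13.02, 12.99 and 13.12 on the acrolein arrays, against 8.77, 9.30, 8.75 and 8.95 on the control arrays. PAU18 read 13.11, 13.32, 13.12 and 13.13 in acrolein, against 9.90, 10.31, 9.52 and 10.08 in control. In both genes every acrolein array lay above every control array, which for PAU4 was a condition of its choice among the largest rises. Against H2O2 9 of the 13 were higher after acrolein, where 26.7% of all genes were, and against NEM 12 were, where 24.8% of all genes were. Most of these probe sets match several family members, so the counts are not of independent genes. The wall mannoprotein genes TIR4 and TIR1 rose by 1.89 ± 0.10 and 1.14 ± 0.16, and CWP1 fell by 2.03 ± 0.12.

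Genes named for sporulation, again picked after their values were seen, went both ways, with 4 of 28 up and 10 down (5 down among those averaging at least 6 over all arrays). SPS100, a spore wall gene, read 11.15, 11.32, 11.02 and 10.77 in acrolein, against 6.81, 7.60, 7.25 and 6.39 in control. SPO20, a membrane fusion protein of spore formation, read 4.18, 3.15, 2.49 and 2.95 in acrolein, against 6.95, 7.14, 6.84 and 6.62 in control. SPS100 rose by 4.05 ± 0.21, and SPO20 was at background after acrolein and at least 3.34-fold lower. FDH1, formate dehydrogenase, read 6.98, 6.77, 6.80 and 6.41 with acrolein and 11.79, 11.49, 12.26 and 11.21 without. It fell by 4.95 ± 0.32 but lay 1.80 ± 0.32 above the NEM arrays (adjusted p = 0.000485). SUE1, which acts in the turnover of cytochrome c, read 8.21, 8.77, 8.02 and 7.93 with acrolein, against 12.51, 13.20, 12.42 and 12.38 without, and fell by 4.40 ± 0.24.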
